A study of Mus musculus with 14 samples.

Results

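The miRNAs described here come from the imprinted Dlk1-Dio3 region of mouse chromosome 12, and they were followed along the mouse epididymis, the duct in which sperm mature and are stored. Members were chosen by name alone: every mature miRNA whose number is one of 47 numbers given to hairpins of the cluster was taken, with any letter and either arm. This gave 80 of the 999 names in the deposited tables, 75 of 900 in the whole tissue table and 56 of 677 in the epithelial table, with 51 names in both. For 44 of the 47 numbers a name was listed. All animals were male Swiss mice of 8 weeks, untreated, and each group is a region of the duct in 1 of 2 preparations. Whole tissue was taken from the caput (3 libraries), corpus (2 libraries) and cauda (3 libraries) after perfusion of the blood vessels, with 3 mice pooled per replicate. Epithelial cells were isolated from the same regions (2 libraries each) from pools of 9 to 12 mice, by clearing sperm, digesting the tissue with enzymes and keeping the cells that stayed in suspension. Sperm were flushed out of the cauda through the lumen, whereas caput and corpus were cut open and washed, so this step differed between the regions compared. The study's methods describe each replicate as a separate biological pool, while a footnote to the epithelial data in its supplement calls the replicates technical. The p-values therefore measure only the spread between these libraries, which may be technical.

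Imprinted genes are expressed from the chromosome of 1 parent. In the Dlk1-Dio3 region the protein-coding genes Dlk1, Rtl1 and Dio3 are expressed from the paternal chromosome, whereas Meg3, Rian, Mirg and the miRNAs are non-coding transcripts of the maternal chromosome. A group of the miRNAs, among them miR-127, miR-136, miR-431, miR-433 and miR-434, lies antisense to Rtl1 and is fully complementary to its transcript, and the many hairpins from miR-379 to miR-410 lie farther along, between Rian and the end of Mirg. A hairpin can give a mature miRNA from its 5′ arm and from its 3′ arm (5p and 3p), and the seed, bases 2 to 8, is the part that pairs with target mRNAs.

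RefSeq (GRCm38.p6) held a mature sequence for 73 of the 80 names, all on chromosome 12 and 72 of them on the plus strand, within chr12:109563744-109743784, a stretch of 180.0 kb. By hairpin number, 7 names belong to the Meg3 side of the cluster, 10 to the Rtl1 antisense group, 4 to Rian and 59 to the group from miR-379 to miR-410. By position, 1 of the 73 lies inside the annotated Meg3, 16 inside Rtl1, 4 inside Rian and 14 inside Mirg. The sequences of the 9 members identified in both preparations are shown here with the seed in capitals, since the comparisons between preparations turn on them.
miR-127-3p: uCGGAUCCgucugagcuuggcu
miR-411-5p: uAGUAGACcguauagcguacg
miR-434-3p: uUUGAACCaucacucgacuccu
miR-410-3p: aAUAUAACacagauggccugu
miR-381-3p: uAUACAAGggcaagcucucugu
miR-300-3p: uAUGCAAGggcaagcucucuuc
miR-541-5p: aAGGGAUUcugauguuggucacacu
miR-379-5p: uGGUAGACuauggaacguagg
miR-409-5p: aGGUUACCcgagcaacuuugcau
The 73 sequences held 70 distinct seeds, and 3 seeds were shared by a pair of names, so that most members carry a seed of their own. Counting from the 5′ end, the seeds of miR-379-5p and miR-411-5p differ at position 2 (G2A) and those of miR-300-3p and miR-381-3p at position 4 (G4A). The last 2 are alike along most of their length, with 19 of 22 bases the same. The minor arms of miR-379 and miR-411 share a seed and 20 of 22 bases, and are shown for that reason.
miR-379-3p: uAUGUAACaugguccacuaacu
miR-411-3p: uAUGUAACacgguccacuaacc
All counts of the members were whole numbers in every library, whereas 2.95 to 4.58% of all values in a library were fractions.

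Whole tissue libraries held 1243398 to 2135501 counts and epithelial libraries 89039 to 362867, so that a mean of 10 counts, above which a miRNA is called identified here, stood for 4.68 to 8.04 CPM in whole tissue and 27.6 to 112 in epithelial cells. Low members were thus less readily detectable in epithelial cells. Replicates of every region differed by more than counting noise. Levels below are CPM (reads scaled to a common library size) after TMM scaling, which matches libraries on the bulk of their miRNAs, and since each read stands for 1 mature miRNA of similar length they need no correction for length. Library types were checked with marker miRNAs: miR-200, miR-141, miR-429 and miR-205, which mark epithelium, summed to 26342 to 41367 CPM in epithelial libraries, 22805 to 24771 in whole caput and 8702 to 10497 in whole cauda. However, miR-143 and miR-145, which mark smooth muscle, summed to 144526 to 336801 CPM in the epithelial libraries, above the 53229 to 65979 CPM of whole caput and, in 5 of the 6, below the 223165 to 249097 CPM of whole cauda. Bulk libraries cannot tell fewer cells of a type from less RNA per cell.

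The cluster took a growing share of all miRNA counts from the proximal to the distal duct in both preparations. In whole tissue the share of the summed members was 0.444, 0.384 and 0.402% in caput, 0.642 and 0.656% in corpus and 1.01, 1.11 and 1.01% in cauda. Regions did not overlap in these libraries, and the cauda stood highest. In epithelial cells the share was 0.163 and 0.181% in caput, 0.319 and 0.337% in corpus and 0.868 and 0.678% in cauda. Again the 3 regions did not overlap, from a caput level below that of whole caput. On the TMM scale the mean sum was 4750 ± 204.9 CPM (SD, n = 3) in whole caput and 9487 ± 394 CPM (SD, n = 3) in whole cauda, a ratio of 1.997. In epithelial cells it was 1870 ± 39.3 CPM (SD, n = 2) and 7475 ± 2372 CPM (SD, n = 2), a ratio of 3.998. Leaving out miR-127-3p, the most abundant member, gave ratios of 2.36 and 4.99. As these are sums over a list of chosen members, no test was made of them.

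**Figure D1:**
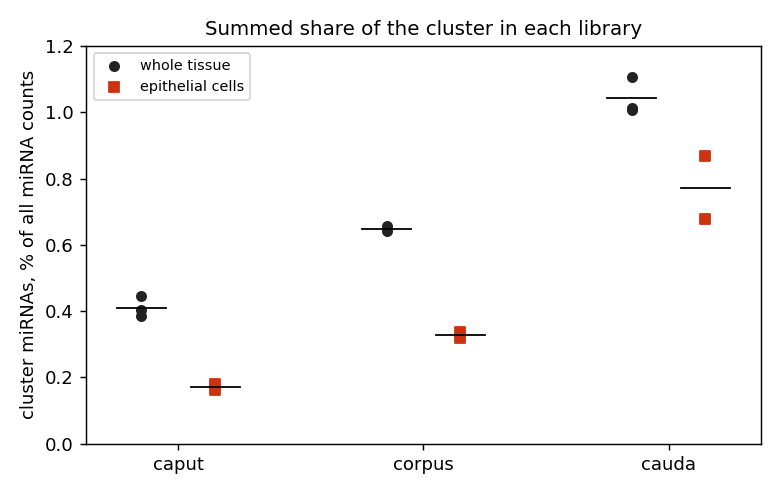
Share of all miRNA counts taken by the summed cluster miRNAs, in percent on the vertical axis, for each library of the caput, corpus and cauda; black circles are whole tissue, red squares epithelial cells and short lines region means. The share was 0.384 to 0.444% in whole caput and 1.01 to 1.11% in whole cauda, against 0.163 to 0.181% and 0.678 to 0.868% in epithelial cells.

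In whole tissue the caput had 17 of the 75 listed members identified, the corpus 19 and the cauda 32. Of the 32, 15 were identified in all 3 regions and 11 in the cauda alone, whereas none was identified in the caput or corpus without the cauda. A further 43 had at least 1 count but were identified in no region. Just inside this limit were miR-127-5p and miR-485-5p, with mean cauda counts of 10.3 and 10.7, and just outside were miR-411-3p and miR-433-3p, with 9.33 and 9.00. In epithelial cells 4 of 56 members were identified in caput, 4 in corpus and 9 in cauda, 5 of them in the cauda alone. The remaining 47 were identified in no region, 8 of them with 0 counts in all 6 libraries. These counts per region were not set against those of all listed miRNAs. The study detected the largest number of miRNAs of any kind in whole cauda, so they are not read as a trait of the cluster.

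The cluster was dominated by a few members. miR-127-3p, the main product of an Rtl1 antisense hairpin, took 43.4 ± 2.01% (SD, n = 3) of the cluster's counts in whole cauda and 52.1 ± 1.61% (SD, n = 3) in whole caput. miR-411-5p, from the start of the miR-379 to miR-410 group, took 28.4 ± 1.62% (SD, n = 3) in whole cauda. With miR-434-3p, miR-410-3p and miR-381-3p, these members made up 89.9 to 93.9% of the cluster's counts in each of the 14 libraries. The balance between the first 2 differed between the preparations. There were 1.37 to 2.09 counts of miR-127-3p per count of miR-411-5p in the 8 whole tissue libraries and 4.77 to 10.4 in the 6 epithelial libraries, without overlap. Because the preparations were tabulated apart with different lists of names, preparation and table cannot be told apart here. The share of miR-127-3p was lower in every cauda library than in every caput library of the same preparation.

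**Figure D2:**
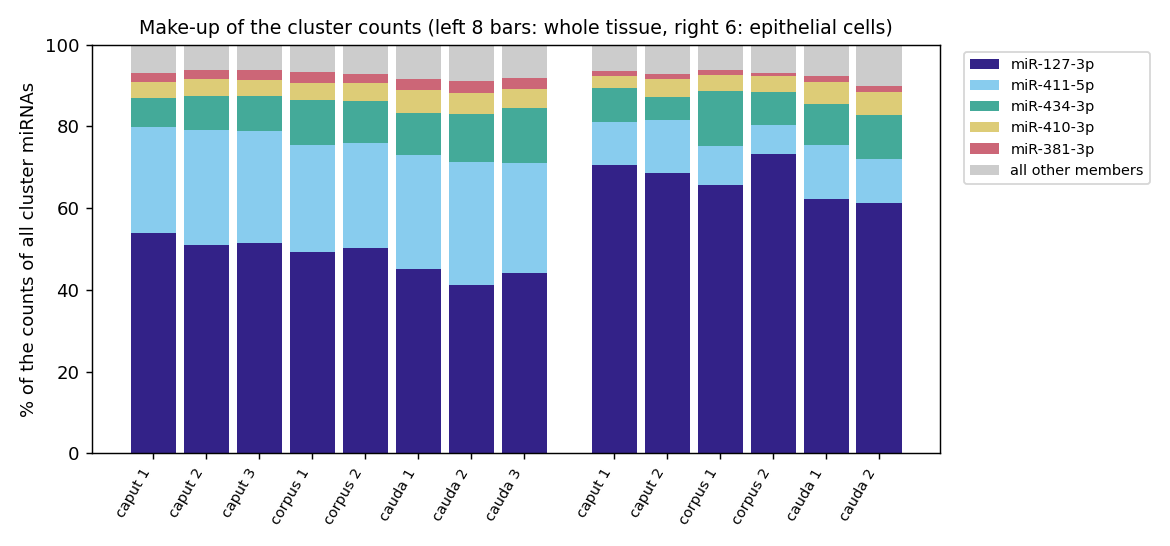
Make-up of the cluster's counts in each of the 14 libraries, in percent of the counts of all members on the vertical axis; the left 8 bars are whole tissue and the right 6 epithelial cells. miR-127-3p took 41.2 to 53.9% in whole tissue and 61.3 to 73.2% in epithelial cells, and miR-411-5p took 25.7 to 30.2% and 7.04 to 13.1%.

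Across the whole duct, from caput to cauda, 28 of the 32 members tested in whole tissue rose and none fell, by limma-voom with an FDR under 0.05 and at least a 2-fold difference. With the replicate numbers as a block 25 of the 32 rose, since miR-136-5p, miR-300-3p and miR-485-5p lost their calls. Over all 355 miRNAs tested, 53.2% were called in either direction and 27.9% were called higher. All 32 members had a higher fitted level in the cauda, with a median log2 change of 1.40 and a range of 0.53 to 3.10, where the median over all miRNAs tested was −0.05. A member that reached the mean of 10 counts only in the cauda had to be higher there. Of the 32, 15 were of this kind, with 13 called, and the other 17 were identified in both regions, with 15 called and caput and cauda libraries that did not overlap for any of the 17. Non-overlapping, higher cauda values were seen in 39.7% of all miRNAs tested. With all miRNAs of at least 1 count tested, 33 of 75 members were called higher and none lower, with 66 of 75 fitted higher, against 15.8% of all miRNAs called higher. With at least 10 counts required in every library, 13 of 14 members were called higher, against 23.5% of all miRNAs so tested.

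miR-127-3p had 2682, 2327 and 2424 CPM in whole caput, 2933 and 3002 in corpus and 4169, 4093 and 4079 in cauda. The 3 cauda libraries lay close together and above every other library. Its log2 change from caput to cauda was 0.73 ± 0.08 (SE, adjusted p = 1.3e-05, limma-voom), under the 2-fold needed for a call, although with library totals in place of TMM it was 1.08 and passed. The other abundant Rtl1 antisense product, miR-434-3p, had 354, 379.4 and 408.9 CPM in caput, 650 and 621 in corpus and 960, 1152 and 1234 in cauda. It rose in steps without overlap of regions, by 1.54 ± 0.11 on the log2 scale from caput to cauda (SE, adjusted p = 9.9e-07, limma-voom). Both arms of miR-136 rose too, miR-136-3p by 1.65 ± 0.24 and miR-136-5p by 1.00 ± 0.26 on the log2 scale (SE, adjusted p = 0.00011 and 0.0046, limma-voom). Fitted with the replicate numbers as a block, the change of miR-136-5p no longer reached 2-fold. Of the 7 Rtl1 antisense members tested 5 were called, with a median log2 change of 1.25, and the 2 not called were miR-127-3p and miR-431-5p, at 0.91 ± 0.39 (SE, adjusted p = 0.053, limma-voom).

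On the Meg3 side 1 of 7 names was tested and in Rian 1 of 4, and both rose. miR-337-5p had 14.2, 9.66 and 13.7 CPM in the caput and 38.1, 43.7 and 34.8 in the cauda, and miR-341-3p of Rian had 18.0, 6.21 and 9.33 CPM in the caput and 37.6, 37.6 and 28.3 in the cauda. Their log2 changes were 1.61 ± 0.22 (SE, adjusted p = 9.0e-05, limma-voom) and 1.71 ± 0.31 (SE, adjusted p = 0.0006, limma-voom). A rise in whole tissue was therefore seen in each of the 4 groups by hairpin number, on the evidence of a single member in 2 of them. By position miR-337-5p lies inside the annotated Rtl1, so no member lying inside Meg3 was tested.

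In the group from miR-379 to miR-410, 21 of 23 members tested rose, with a median log2 change of 1.40. miR-411-5p had 1284, 1291 and 1289 CPM in caput, 1564 and 1541 in corpus and 2589, 2999 and 2501 in cauda. Its caput libraries nearly coincided, and most of its rise of 1.06 ± 0.09 (SE, adjusted p = 1.9e-06, limma-voom) came after the corpus. miR-410-3p, the last hairpin of the group, had 192, 182 and 184 CPM in caput, 258 and 256 in corpus and 519, 520 and 445 in cauda. With a log2 change of 1.41 ± 0.10 (SE, adjusted p = 8.6e-07, limma-voom) it had the lowest adjusted p of the 32 members. In the study's quantitative PCR on other pools, however, miR-410-3p was the only chosen miRNA without a significant change. The study proposes that its low level may account for this. miR-381-3p had 112, 109 and 116 CPM in caput, 164 and 142.99 in corpus and 235, 300 and 248 in cauda, with regions again apart, and miR-300-3p, which resembles it in sequence, had 51.5, 40.0 and 44.5 CPM in caput, 54.5 and 49.2 in corpus and 83.9, 99.1 and 90.2 in cauda. The log2 change of miR-300-3p was 1.0013 and sat on the 2-fold limit, so that it was not called with the replicate block (0.9968) nor without caput replicate 2 or cauda replicate 2.

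miR-379-5p, whose seed is 1 base from that of miR-411-5p, was the only member called in whole tissue between caput and corpus. It had 19.3, 13.1 and 14.8 CPM in caput, 36.6 and 33.5 in corpus and 49.9, 59.1 and 53.1 in cauda. The regions did not overlap and, unlike for miR-411-5p, much of the rise was already present in the corpus. miR-541-5p had 62.4, 46.2 and 47.2 CPM in caput, 49.3 and 68.9 in corpus and 118, 140.98 and 141.5 in cauda. Its caput and corpus libraries overlapped and its cauda libraries lay above both. Both arms of miR-409, miR-409-3p at 55.9 ± 3.85 CPM and miR-409-5p at 41.6 ± 3.57 CPM in the cauda (SD, n = 3), rose from 21.02 ± 1.99 and 12.4 ± 4.86 CPM in the caput (SD, n = 3).

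Among the members called with libraries that did not overlap, the largest log2 change from caput to cauda was that of miR-134-5p (3.10 ± 0.52, SE, adjusted p = 0.00031, limma-voom), a miRNA known in neurons for its effect on dendritic spines. It rested on few counts in the caput, 2, 3 and 2, against 39, 20 and 20 in the cauda, a ratio of 13.2 between the shares of all counts (not TMM-scaled) with a 95% counting interval of 6.10 to 33.8. Next came miR-369-3p (2.44 ± 0.43), miR-487b-3p (2.12 ± 0.46) and miR-376a-3p (2.04 ± 0.48) on the log2 scale with SE, each with mean caput counts under 10 and a cauda level of 7.45 to 21.5 CPM. These 3 and miR-134-5p reached a mean of 10 counts in the cauda alone, and so had to be higher there. miR-329-3p had 2.57, 3.45 and 5.49 CPM in the caput and 8.75, 9.85 and 9.43 in the cauda. It rose by 1.24 ± 0.34 on the log2 scale (SE, adjusted p = 0.0066, limma-voom), but had an adjusted p of 0.12 in DESeq2's Wald test. The other tested member not called in this group, beside miR-299a-5p at 1.21 ± 0.56 (SE, adjusted p = 0.071, limma-voom), was miR-329-5p, the other arm of that hairpin, at 0.53 ± 0.27 (SE, adjusted p = 0.093, limma-voom). miR-485-5p was called although its libraries overlapped, and lost the call with the replicate block (adjusted p = 0.051, limma-voom).

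**Figure D3:**
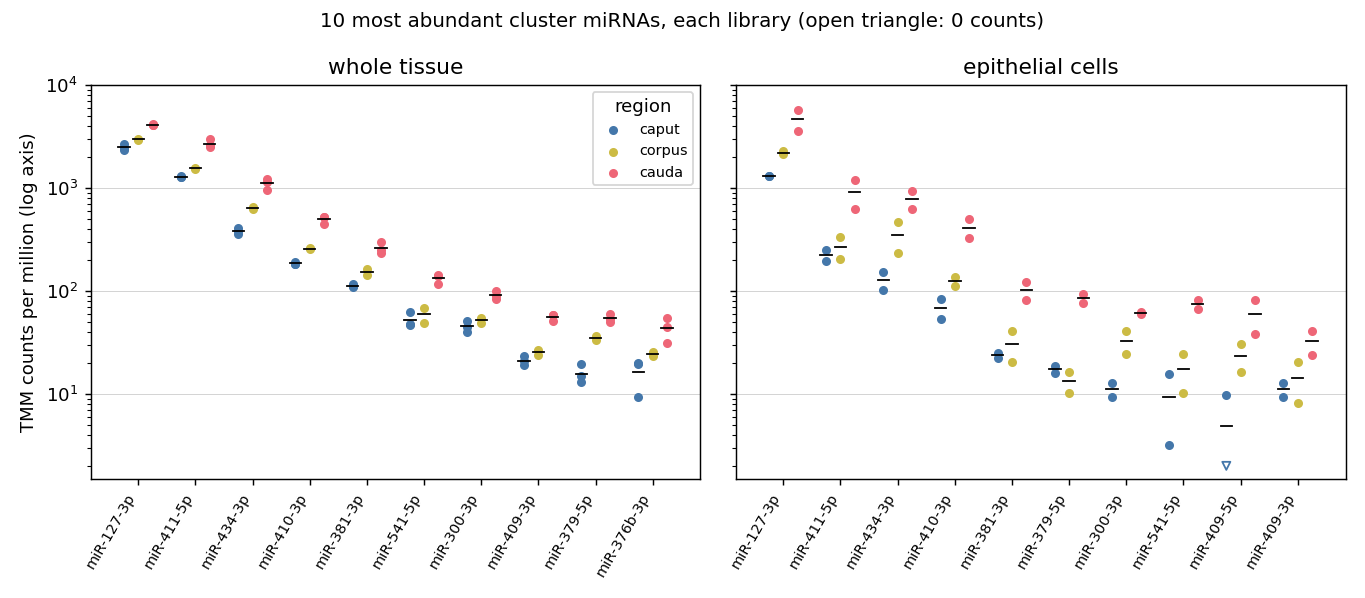
Level of the 10 most abundant cluster miRNAs of each preparation in every library, in TMM-scaled CPM on a log axis; colours are regions, short lines region means and the open triangle a library with 0 counts. In whole tissue the 3 cauda libraries of each of the 10 lie above its caput and corpus libraries, and in epithelial cells both cauda libraries do. Over all miRNAs tested, the cauda libraries lay above all caput libraries for 39.7% in whole tissue and 35.6% in epithelial cells. They lay above all corpus libraries for 40.5% and 35.4%.

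The 2 steps along the duct were then compared one by one. Between caput and corpus in whole tissue, 1 of 21 members tested was called, against 29.9% of all 334 miRNAs tested, with a median log2 change of 0.47. Of the 21, 19 were fitted higher in the corpus and 2 lower, miR-376c-3p (−0.83) and miR-329-5p (−0.56), neither of them called. With library totals in place of TMM, 7 of the 21 were called, against 33.2% of all miRNAs tested, and the mean share of the cluster in all counts rose 1.58-fold from caput to corpus and 1.60-fold from corpus to cauda. On the TMM scale the summed level rose 1.26-fold and 1.59-fold. The member called in the main fit was miR-379-5p, with a log2 change of 1.15 ± 0.22 (SE, adjusted p = 0.0016, limma-voom). miR-434-3p (0.74 ± 0.13) and miR-410-3p (0.47 ± 0.12) had log2 changes with an adjusted p of 0.00097 and 0.0077 in limma-voom and missed only the 2-fold limit. The count was 2 without caput replicate 2, caput replicate 3 or corpus replicate 2 and 3 without caput replicate 1 or corpus replicate 1. Between corpus and cauda 8 of 32 members were called, all higher, against 27.3% of all miRNAs tested called and 14.4% called higher, with a median log2 change of 0.94 where that of all miRNAs was 0.05. All 32 were fitted higher in the cauda, and for 29 of them every cauda library lay above every corpus library, as for 40.5% of all miRNAs tested. Of the 32, 13 passed the limit of 10 counts in the cauda alone and so had to be higher there, with 4 of the 8 calls and 11 of the 29. The other 19 were identified in both regions, with 4 calls and 18 without overlap. The 8 called were miR-376c-3p, miR-134-5p, miR-299a-3p, miR-541-5p, miR-369-3p, miR-409-3p, miR-329-5p and miR-341-3p, with log2 changes of 1.04 to 2.19. The 5 most abundant members were not among them, since their changes of 0.47 to 0.94 lay under 2-fold, each with an adjusted p of 0.0012 or less in limma-voom. The count was 3 without corpus replicate 1 and 4 without corpus replicate 2. Each of these 2 refits held a lone corpus library, assumed to vary like the other groups. With the replicate numbers as a block the count was 11, as miR-329-5p lost its call (adjusted p = 0.066, limma-voom) and both arms of miR-136, miR-376a-3p and miR-376b-3p gained one.

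In epithelial cells the rise from caput to cauda was called for all 9 members tested, of which 4 were identified in both regions and 5 in the cauda alone. Over all 216 miRNAs tested, 25.9% were called in either direction and 13.9% were called higher. The members' median log2 change was 2.32, with a range of 1.796 to 3.86, where the median over all miRNAs tested was −0.0014. For all 9 the cauda libraries both exceeded the caput libraries, as for 35.6% of all miRNAs tested. With all miRNAs of at least 1 count tested, 14 of 48 members were called higher and none lower, against 6.72% of 551 miRNAs called higher. The count was 8 without cauda replicate 1 and fell from 9 to 3 without caput replicate 2, with the lone caput library assumed to vary like the other groups.

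The members identified in both regions are those with the firmest values. miR-127-3p had 1298 and 1302 CPM in epithelial caput, 2280 and 2124 in corpus and 5704 and 3554 in cauda. Its caput libraries nearly coincided, its cauda libraries lay far apart, and the log2 change of 1.796 ± 0.236 was called (SE, adjusted p = 0.00099, limma-voom). miR-411-5p had 196 and 248 CPM in caput, 333 and 204 in corpus and 1195 and 621 in cauda, so that caput and corpus overlapped and the cauda stood apart. miR-434-3p had 152 and 103 CPM in caput, 462.5 and 235 in corpus and 931 and 626 in cauda. Here the regions did not overlap, and its log2 change was 2.60 ± 0.37 (SE, adjusted p = 0.0013, limma-voom). miR-410-3p had 52.9 and 83.8 CPM in caput, 138 and 112 in corpus and 495.2 and 330 in cauda, with a log2 change of 2.60 ± 0.36 (SE, adjusted p = 0.0012, limma-voom). The cauda levels of these 4 were higher in replicate 1 than in replicate 2 throughout.

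The 5 members identified only in epithelial cauda were miR-379-5p, miR-381-3p, miR-300-3p, miR-541-5p and miR-409-5p, with log2 changes of 2.04 to 3.86. miR-409-5p had 0 and 3 counts in the caput and 22 and 8 in the cauda, a ratio of 14.9 between the shares of all counts with a 95% counting interval of 4.63 to 76.2. miR-541-5p had 5 and 1 counts in the caput and 18 and 17 in the cauda. Of the members just outside the limit, miR-337-3p had 0 and 1 counts in the caput and 9 and 9 in the cauda. These are differences between handfuls of reads, and the counting intervals cover counting error only.

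**Figure D4:**
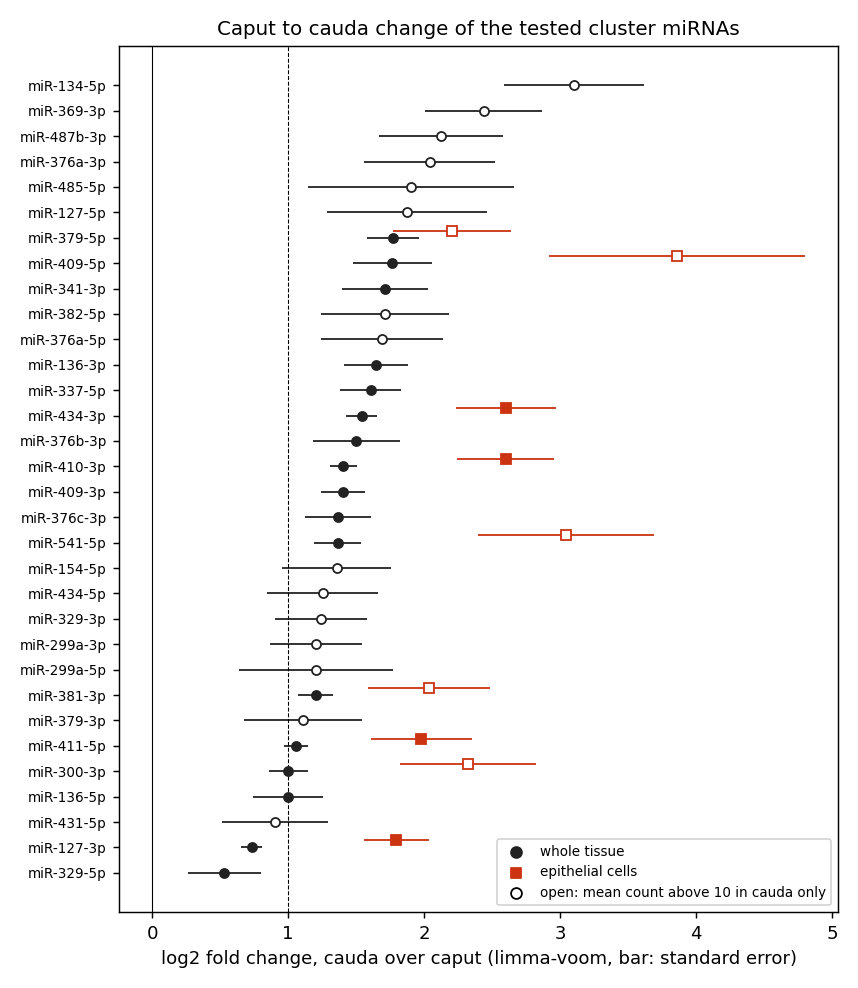
Log2 change between caput and cauda for the 32 members tested in whole tissue (black circles) and the 9 tested in epithelial cells (red squares), with the standard error of the limma-voom fit as bars; open symbols are members with a mean count above 10 in the cauda only, and the dashed line is 2-fold. All points lie above 0, from 0.53 for miR-329-5p to 3.10 for miR-134-5p in whole tissue and from 1.796 to 3.86 in epithelial cells.

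Between epithelial caput and corpus none of the 4 members tested was called in limma-voom, against 12.2% of all miRNAs tested, although 2 had an unadjusted p under 0.05, and 1 was called by edgeR's quasi-likelihood test and 1 by the Wald test in DESeq2. In limma-voom 1 was also called with DESeq2's size factors, library totals, 10 counts required in every library, the replicate block or a fit of those 2 regions only. miR-434-3p was nearest, at a log2 change of 1.42 ± 0.44 (SE, adjusted p = 0.051, limma-voom). Between epithelial corpus and cauda 4 of 9 were called, all higher, against 10.9% of all 192 miRNAs called and 6.77% called higher. They were miR-379-5p, miR-411-5p, miR-410-3p and miR-127-3p, with log2 changes of 2.29, 1.70, 1.66 and 1.03. For miR-379-5p the corpus held 2 and 1 counts against 25 and 16 in the cauda, a ratio of 6.39 between the shares of all counts with a 95% counting interval of 2.04 to 32.3. For all 9 both cauda libraries lay above both corpus libraries, as for 35.4% of all miRNAs tested, but 5 of the 9 passed the limit of 10 counts in the cauda alone and so had to be higher there, with 1 of the 4 calls. The count of 4 fell to 0 without caput replicate 2, corpus replicate 1, corpus replicate 2 or cauda replicate 1, and to 2 without caput replicate 1.

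The change from caput to cauda was fitted larger in epithelial cells than in whole tissue for all 9 members that could be compared, and for 5 of them the difference was called by the interaction of preparation and region in limma-voom. Over all 194 miRNAs compared, 20.1% were called and 15.5% were called larger in epithelial cells. The members' median difference was 1.12 on the log2 scale, where the median over all miRNAs was 0.38. The 5 were miR-127-3p, miR-300-3p, miR-410-3p, miR-434-3p and miR-541-5p. Of the 9 members, 5 had a mean above 10 counts only in the cauda among epithelial regions, miR-300-3p and miR-541-5p among them. With all miRNAs of at least 1 count compared, the change was fitted larger in epithelial cells for 33 of 51 members and smaller for 18, with a median difference of 0.31 on the log2 scale. With the replicate block miR-300-3p and miR-541-5p lost their calls (adjusted p = 0.051 and 0.053, limma-voom) and miR-411-5p gained one, which left 4. With DESeq2's Wald test, DESeq2's size factors or at least 10 counts required in every library none of the members was called, and with library totals 1 was called. Leaving out 9 of the 14 libraries, 1 at a time, left 0 to 3 calls: 0 without epithelial cauda replicate 1, 1 without epithelial caput replicate 2, either epithelial corpus library or either whole corpus library, 2 without epithelial caput replicate 1 or whole caput replicate 3, and 3 without whole cauda replicate 1. The preparations came in separate tables, and preparation and table cannot be told apart in this comparison.

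The members' shares of all counts in epithelial cells and in whole tissue of the same region were set side by side, with no test. Members were compared if their whole tissue share would give at least 5 epithelial counts, so a member low in whole tissue and high in epithelial cells could not enter. In the caput 9 of 15 members had a ratio whose 95% counting interval lay below 1 and none had one above 1, where these parts were 39.0% and 27.5% of 269 miRNAs listed in both tables. In the corpus the numbers were 6 of 11 and none, against 41.5% and 26.9% of 212 miRNAs, and in the cauda 11 of 21 and 3, against 39.7% and 34.1% of 267. The epithelial share of miR-411-5p was 0.183 of that of whole tissue in the caput (95% counting interval 0.154 to 0.217), 0.167 in the corpus (0.128 to 0.215) and 0.331 in the cauda (0.301 to 0.363). For miR-127-3p the ratio was 0.559 (0.520 to 0.5999), 0.701 (0.639 to 0.768) and 1.09 (1.04 to 1.14). miR-127-3p was thus near its whole tissue share in the cauda, and miR-411-5p far under it in each region. miR-376b-3p had 0 counts in epithelial caput, where the whole tissue share would give 9.33. Since these intervals hold counting error only and replicates differed by more than that, they do not carry a statement on the preparations in general.

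The 3 with an interval above 1 in the cauda were miR-127-3p, miR-379-5p and miR-154-5p, the last 2 with ratios of 1.503 (95% counting interval 1.06 to 2.09) and 2.64 (1.39 to 4.71). miR-433-3p, too low in whole tissue to be among the 21, had a ratio of 4.996 (2.37 to 10.0). The arms of miR-337 were listed unequally. In whole cauda it was read as 204 counts of miR-337-5p and 8 of miR-337-3p, whereas epithelial cauda held 18 counts of miR-337-3p and the epithelial table has no row for miR-337-5p, so its use of arms in epithelial cells is unknown. For the 3p arm the ratio of the epithelial to the whole tissue share was 23.3 (95% counting interval 9.66 to 62.1). Both mature sequences are shown because the whole tissue counts lay mostly on miR-337-5p, whereas only miR-337-3p was listed for epithelial cells.
miR-337-5p: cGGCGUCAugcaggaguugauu
miR-337-3p: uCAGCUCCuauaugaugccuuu

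Arm use was strongly one-sided for the abundant hairpins. In whole tissue the 3p arm took 99.9% of the counts of miR-127, 98.7% of miR-434, 99.98% of miR-410 and 99.96% of miR-381, and 98.6 to 100% of the counts of each in every region. miR-411 and miR-541 were read from the other side, with 0.193 and 0.178% of counts on the 3p arm. miR-379 was less one-sided, with 66 counts on the 3p arm against 459 on the 5p arm (12.6%). Others gave both arms in similar numbers. miR-409 had 57.8% of its counts on the 3p arm, miR-136 49.2%, miR-329 45.0%, miR-376a 55.1% and miR-299a 61.3%. For miR-136 the 3p share was 40.3% in the caput (95% exact binomial interval 31.4 to 49.7%) and 51.9% in the cauda (46.3 to 57.4%), with libraries of 30.2, 45.5 and 46.5% against 55.5, 48.3 and 51.8%. The cauda libraries lay above the caput libraries, but the intervals overlap. In epithelial cells miR-409 had 26 counts on the 3p arm and 38 on the 5p arm (40.6% 3p). By region the 3p share was 70.0% of 10 counts in epithelial caput (34.8 to 93.3%) against 62.3% in whole caput (54.4 to 69.8%), 37.5% of 8 counts in epithelial corpus (8.52 to 75.5%) against 54.1% in whole corpus (45.3 to 62.8%), and 34.8% of 46 counts in epithelial cauda (21.4 to 50.2%) against 57.3% in whole cauda (52.9 to 61.7%).

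**Figure D5:**
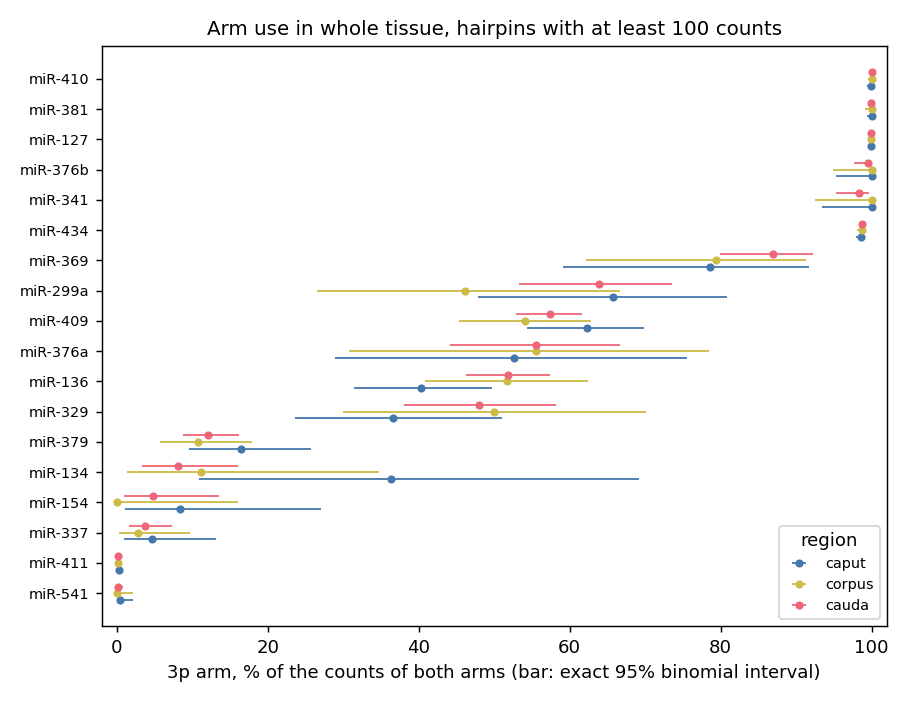
Share of the 3p arm among the counts of both arms, in percent on the horizontal axis, for the 18 hairpins with at least 100 counts in whole tissue; colours are regions, points are counts summed over the libraries of a region and bars exact 95% binomial intervals. miR-410, miR-381 and miR-127 sit near 100%, miR-411 and miR-541 near 0%, and miR-409, miR-376a, miR-136 and miR-329 between.

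Marker miRNAs of other cell types changed along the duct as well. In whole tissue 5 smooth muscle names summed to 53229 to 65979 CPM in the caput and 223165 to 249097 in the cauda, a ratio of 4.06, with 4 of 4 tested called higher. For 13 striated muscle names the sums were 33.4 to 35.2 and 150 to 1077 CPM, a ratio of 17.1, with 6 of the 13 at 0 in the caput and 6 of 6 tested called higher. The 7 red blood cell names had a ratio of 13.5 (6 of 6 called higher), the 6 fibroblast and stroma names, from miR-199 and miR-214, a ratio of 1.78 (2 of 6) and the 37 germ cell names a ratio of 2.70 (22 of 25), while the 12 epithelium names stood at 0.405 of their caput level, with 6 of 11 tested called lower. The 7 leukocyte names stood at 1.86, the 4 endothelium names at 1.05 and the 5 neuron names at 2.49 of their caput level, the last from only 2.76 to 5.79 CPM. In epithelial cells the ratios were 1.45 for smooth muscle, 1.05 for striated muscle, 1.87 for fibroblast and stroma, 1.69 for endothelium, 5.32 for red blood cells, 2.22 for leukocytes, 1.36 for epithelium, 1.21 for germ cells and 1.13 for neurons. Called higher there were 3 of 3 red blood cell names tested, 2 of 2 leukocyte names, 2 of 5 fibroblast and stroma names and 5 of 12 germ cell names, whose median log2 change was 2.23, and none of the 3 smooth muscle, 1 striated muscle, 2 endothelium and 9 epithelium names, the last with a median log2 change of −0.28. The germ cell names, led by miR-34c-5p in every library, summed to 3953 to 4546 CPM in epithelial caput, which had been cleared of sperm. In whole caput they summed to 4601 to 5686 CPM, and which cells this sum reflects was not tested. The cluster's own ratios in the 2 preparations were 1.997 and 3.998. Within epithelial cauda, replicate 1 had the higher cluster sum (9152 against 5798 CPM) and the higher sums for smooth muscle (336801 against 158218 CPM), stroma (7034 against 4681), endothelium (56669 against 46640.1), red blood cells (2983 against 1590.5), leukocytes (1589.95 against 1380.3), neurons (63.3 against 33.4) and striated muscle (465.4 against 315). It had the lower sums for epithelium (33862 against 41367 CPM) and germ cells (2934 against 7369.8). The part of these cell types in the cluster's change was not tested.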

How the data were processed

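Small RNA of 14 mouse libraries, 8 of whole epididymis and 6 of isolated epididymal epithelial cells, was sequenced on an Illumina HiSeq. After trimming and removal of PhiX, adaptor, mitochondrial and ribosomal reads, the authors aligned the rest to mm10 and to miRBase 21 mature miRNAs. What they deposited are expected counts for each mature miRNA, without normalization, to which 0.001 had been added throughout in the epithelial table. The submitters' processing notes list CASAVA 1.8.2, Bowtie 1.1.1 and limma. How reads matching several miRNAs were counted is not given in the sources used here.

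The constant was removed and counts were rounded. TMM scaling (edgeR 4.0.16) was followed by limma-voom (R 4.3.3, limma 3.58.1), separately for each preparation and with region means as the model. A miRNA entered a comparison if its mean count exceeded 10 in at least 1 of the regions compared, p-values were adjusted over all such miRNAs by Benjamini-Hochberg, and calls needed an FDR under 0.05 and at least a 2-fold difference. The difference between preparations was the interaction in 1 fit of all libraries, over names listed in both tables. Every p-value is two-sided. Alternatives were edgeR's quasi-likelihood test, DESeq2's Wald test (DESeq2 1.42.0), other scalings and filters, a replicate block, 2 regions only and leaving out each library. Where a region had 2 libraries, leaving out 1 left a lone library that was assumed to vary like the other groups.

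The replicate numbers come from the sample titles. In the headers of the counts, the whole tissue libraries are numbered on from caput to cauda, with a number skipped before the corpus. Whether the corpus titles match the same-numbered caput and cauda libraries is therefore not known, and the replicate block carries this limit. Deviations from the region means correlated between same-numbered whole caput and cauda libraries at 0.196, 0.113 and 0.118, which would pair them. The main fit has no block, as set in the design, and the members whose call the block changed in whole tissue are named. All 14 libraries were used, although the study's methods state 2 replicates for each region.

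Members were named if among the 10 most abundant of a preparation, among the 10 largest called changes without overlap between libraries, called in the interaction, miR-410-3p or miR-329-3p, the other arm of such a hairpin, or next to the limit of 10 counts. miR-154-5p and miR-433-3p beyond the limit, miR-431-5p, miR-485-5p and miR-543-3p were added after their values were seen. The members and the lists were chosen with earlier results of these data known. The methods were run on simulated counts with known changes, whose spread between replicates was fixed and not taken from these libraries. Error rates in the real data therefore cannot be read from them. Counting intervals cover 95% and counting error only.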

Additional observations from a re-analysis of the deposited data

Results flagged for a closer look

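For 5 members the change from caput to cauda differed between the preparations in the interaction test. Of these, miR-300-3p and miR-541-5p had a mean above 10 counts only in the cauda among epithelial regions, which favoured a rise there. The difference, epithelial change minus whole tissue change on the log2 scale with its SE, was 1.12 ± 0.22 for miR-127-3p (adjusted p = 0.0023, limma-voom), 1.39 ± 0.46 for miR-300-3p (adjusted p = 0.032, limma-voom), 1.26 ± 0.33 for miR-410-3p (adjusted p = 0.012, limma-voom), 1.11 ± 0.35 for miR-434-3p (adjusted p = 0.028, limma-voom) and 1.74 ± 0.57 for miR-541-5p (adjusted p = 0.032, limma-voom). miR-411-5p had a difference of 0.9998 with an adjusted p of 0.032 in limma-voom and missed the 2-fold limit. With the replicate block miR-300-3p and miR-541-5p were not called (adjusted p = 0.051 and 0.053, limma-voom), and miR-411-5p was. Over the alternatives other than those leaving out a library, the adjusted p was 0.002 to 0.038 for miR-127-3p, 0.028 to 0.21 for miR-300-3p, 0.0087 to 0.12 for miR-410-3p, 0.0081 to 0.16 for miR-434-3p and 0.044 to 0.18 for miR-541-5p. The difference of miR-127-3p fell under 2-fold, so that the call was lost, in DESeq2's Wald test, with DESeq2's size factors, with library totals, with all miRNAs of at least 1 count and with 10 counts in every library. The preparations came in separate tables, and the part of other cell types in these differences was not tested.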

How the results depend on the processing

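From caput to cauda, the 32 members tested in whole tissue and the 9 in epithelial cells were fitted higher in the cauda in each of 490 and 120 refits under the alternatives, whereas of the members with fewer counts, 9 in whole tissue and 4 in epithelial cells were fitted lower when all miRNAs of at least 1 count were tested. In whole tissue the 28 members called from caput to cauda became 13 of 14 when 10 counts were required in every library, since fewer were tested, and the 8 called from corpus to cauda became 2 with that filter and 3 in DESeq2's Wald test. The 1 called from caput to corpus became 7 with library totals and 3 with all miRNAs of at least 1 count. In epithelial cells the 9 called from caput to cauda became 14 with all miRNAs of at least 1 count and 4 with 10 counts in every library, and the 4 from corpus to cauda became 1 when only those 2 regions were fitted. From epithelial caput to corpus, 1 was called by edgeR's quasi-likelihood test, DESeq2's Wald test, DESeq2's size factors, library totals, 10 counts in every library, the replicate block and the fit of only the 2 regions, and 2 with all miRNAs of at least 1 count. The 5 interaction calls became 0 in DESeq2's Wald test, with DESeq2's size factors and with 10 counts in every library, and 1 with library totals (miR-410-3p) and with all miRNAs of at least 1 count (miR-543-3p, which is none of the 5). Leaving out 1 library at a time gave 1 to 3, 3 to 12 and 22 to 29 calls from caput to corpus, corpus to cauda and caput to cauda in whole tissue, 0 to 1, 0 to 5 and 3 to 9 in epithelial cells, and 0 to 7 for the interaction. A change near 0 turned its sign for miR-541-5p from whole caput to corpus without corpus replicate 2 (−0.0029, against 0.4157 without corpus replicate 1) and for miR-411-5p from epithelial caput to corpus without corpus replicate 1 (−0.0842, against 0.6335 without corpus replicate 2). Library totals moved the median of all miRNAs by 0.33 (log2) between caput and corpus and 0.35 between caput and cauda in whole tissue and by 0.16 and 0.18 in epithelial cells, and raised the part of calls that were higher from 47.0 to 68.5%, 52.4 to 63.9%, 52.0 to 66.7% and 53.6 to 67.2%. DESeq2's size factors moved the median of the interaction by −0.29 and this part from 76.9 to 48.0%, library totals by −0.22 and to 59.3%, and in epithelial cells the size factors moved the caput to corpus median by 0.10 and this part from 52.0 to 64.3%. With the replicate block 25 members were called from caput to cauda and 11 from corpus to cauda in whole tissue, 9 and 5 in epithelial cells and 4 in the interaction, 3 of them among the 5 called without it. Same-numbered libraries correlated at 0.24 and 0.14 between whole corpus and cauda (2 pairs), where pairing was left undecided. They correlated at −0.01 and −0.04 between whole caput and corpus. In the 3 epithelial comparisons the values were 0.21, −0.06 and 0.0005 on average, without a common direction. The numbers were not taken as pairs between whole caput and corpus or in epithelial cells. The cause of these differences was not tested. Depth limits the members with fewer than 10 counts, which are most of those listed in epithelial cells.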
